A study of Mus musculus with 4 samples.

Results

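Vcan, Ncan, Bcan, Tnr, Hapln1, Hapln2, Hapln4, Cspg4 and Cspg5 encode proteoglycans, a glycoprotein and link proteins of the extracellular matrix of the brain. These 9 genes were a fixed list and were taken from the 20136 genes of the deposited tables, in which all of them had a row. Their transcripts were measured by Drop-seq, which captures single cells in droplets with barcoded beads and counts each captured molecule by its unique molecular identifier (UMI). The tissue, punched from wildtype male C57BL/6J mice, was the BNST, or bed nucleus of the stria terminalis, which belongs to the extended amygdala. There was 1 group of 4 libraries, labelled as batches 1 to 4, each from 6 pooled mice (24 in all), with no treatment and no age given, so the comparisons below are between cell types within libraries. Because mice were pooled, the spread between libraries is a spread between pools and not between animals.

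Lecticans are secreted chondroitin sulfate proteoglycans that bind the long sugar chain hyaluronan at one end and tenascins at the other. Versican (Vcan), neurocan (Ncan) and brevican (Bcan) are lecticans, as is aggrecan (Acan), the core proteoglycan of perineuronal nets. Link proteins of the Hapln family clamp lecticans onto hyaluronan, and tenascin-R (Tnr) crosslinks lecticans of neighbouring chains. Cspg4 (NG2) and Cspg5 (neuroglycan C) are transmembrane chondroitin sulfate proteoglycans. NG2 is a classical surface marker of oligodendrocyte precursor cells (OPCs) and of pericytes, and Hapln2 (Bral1) is known from the nodes of Ranvier of myelinated axons.

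In the mouse genome (GRCm38, GENCODE vM21) the 4 lecticans, Acan included, each sit beside a link protein gene, with 0 coding genes between the members of a pair. Vcan (chromosome 13, 89655312 to 89742509, minus strand) and Hapln1 (chromosome 13, 89539796 to 89611652, plus strand) lie 43659 bases apart with their 3' ends facing. Ncan (chromosome 8, 70093085 to 70120873, minus strand) and Hapln4 (chromosome 8, 70083457 to 70090862, plus strand) lie 2222 bases apart, also with their ends facing. Bcan (chromosome 3, 87987531 to 88000230, minus strand) lies 21519 bases from Hapln2 (chromosome 3, 88021750 to 88027583, minus strand) on the same strand. Acan (chromosome 7, 79053483 to 79115099, plus strand) and Hapln3 (chromosome 7, 79115102 to 79131018, minus strand), which are no members, have their ends facing 2 bases apart. The other members are Tnr (chromosome 1, 159523769 to 159931729, plus strand), Cspg4 (chromosome 9, 56865033 to 56899870, plus strand) and Cspg5 (chromosome 9, 110243783 to 110262576, plus strand). Vcan overlaps Gm4117 on the opposite strand and Tnr overlaps Gm10530 on the same strand, and both of these have rows of their own in the tables, so reads from the shared stretches could have been counted for either.

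Bcan and Hapln2 are shown by the 250 bases before their RefSeq starts (GRCm38.p6, both on the minus strand, 5' to 3'), because these neighbours on 1 strand had UMIs in different cells. The Bcan window is chr3:88000357-88000606 and the Hapln2 window is chr3:88027512-88027761. Capitals mark matches to the letters searched on both strands, which were ACAATG or ACAAAG (SOX), CAGCTG or CATATG (E-box), TTGGC followed after 5 bases by GCCAA (NFI) and TATAAA, the core promoter box.
Bcan: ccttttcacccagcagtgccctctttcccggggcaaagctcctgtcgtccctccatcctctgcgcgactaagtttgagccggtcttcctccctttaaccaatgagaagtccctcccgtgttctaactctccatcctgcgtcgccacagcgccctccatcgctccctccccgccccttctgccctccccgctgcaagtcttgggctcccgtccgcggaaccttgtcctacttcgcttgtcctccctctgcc
Hapln2: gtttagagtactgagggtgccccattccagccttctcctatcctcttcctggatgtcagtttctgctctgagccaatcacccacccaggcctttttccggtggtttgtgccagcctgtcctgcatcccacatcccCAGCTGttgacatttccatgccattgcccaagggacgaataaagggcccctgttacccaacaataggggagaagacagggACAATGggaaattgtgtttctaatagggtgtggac
The Hapln2 window held 1 SOX match and 1 E-box match, and the Bcan window held no match to any of the letters. Of 32536 RefSeq promoter windows of this length, 25.0% held a SOX match, 16.1% an E-box match, 12.3% a TATA box and 0.0369% an NFI match. Windows were at hand for 7 of the 9 members. Among the others, Tnr had 1 SOX match, Ncan had 1 E-box match and 1 TATA box, and Vcan, Cspg4 and Hapln1 had none. A match is a description of letters and not of a bound site.

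Cells were assigned to classes by marker genes that include no member of the list. A cell needed at least 2 different markers of a class and at least 2 times as many as of any other class. Committed precursors had a gate of their own without this margin, given below. Of 10200 barcodes with 14018026 UMIs, 4181 cells remained after the filters on detected genes, mitochondrial UMIs and doublets (837 to 1281 per library). They comprised 2511 neurons, 404 astrocytes, 122 OPCs, 33 committed precursors, 905 mature oligodendrocytes, 66 vascular cells, 10 microglia, 9 fibroblasts and 121 cells in no class. The cells in no class held 23.3% of the Cspg4 UMIs of kept cells (70 of 301), 13.6% of those of Vcan and 9.44% of those of Bcan, and these enter no class level below. The median depth was 3191 UMIs in neurons, 812 in astrocytes, 959.5 in OPCs, 2091 in committed precursors and 1380 in mature oligodendrocytes. The OPC markers summed to between 6143 and 6982 CPM (UMIs per 1000000 UMIs of the class) in OPCs over the 4 libraries, against 34.5 to 108 CPM in astrocytes, where 2 of 7 were at 0. Astrocyte markers summed to 323 to 424 CPM in OPCs, with 2 of 8 at 0, against 15564 to 19039 CPM in astrocytes. Levels below are CPM of all UMIs of a class in a library, given as the mean ± SD of the 4 libraries, and they are compared within a gene and not between genes.

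The members differed in the class where they stood highest. Over neurons, astrocytes, OPCs, committed precursors and mature oligodendrocytes, Vcan and Cspg4 had their highest mean levels in OPCs, Cspg5 in OPCs and then in astrocytes, Hapln1 in astrocytes, Hapln2 in mature oligodendrocytes, Hapln4 in neurons, and Tnr in committed precursors. Bcan was high in astrocytes, OPCs and committed precursors and Ncan in astrocytes and OPCs, and the tests of OPCs against astrocytes, and for Bcan of committed precursors against OPCs, made no call. Tests were made on UMIs summed per library and class with edgeR's quasi-likelihood test, with library as a block and Benjamini-Hochberg adjustment over all genes tested, and a call means an adjusted p under 0.05. In that fit 8 of the 9 members passed the filter on low counts, and Hapln4 did not.

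**Figure D1:**
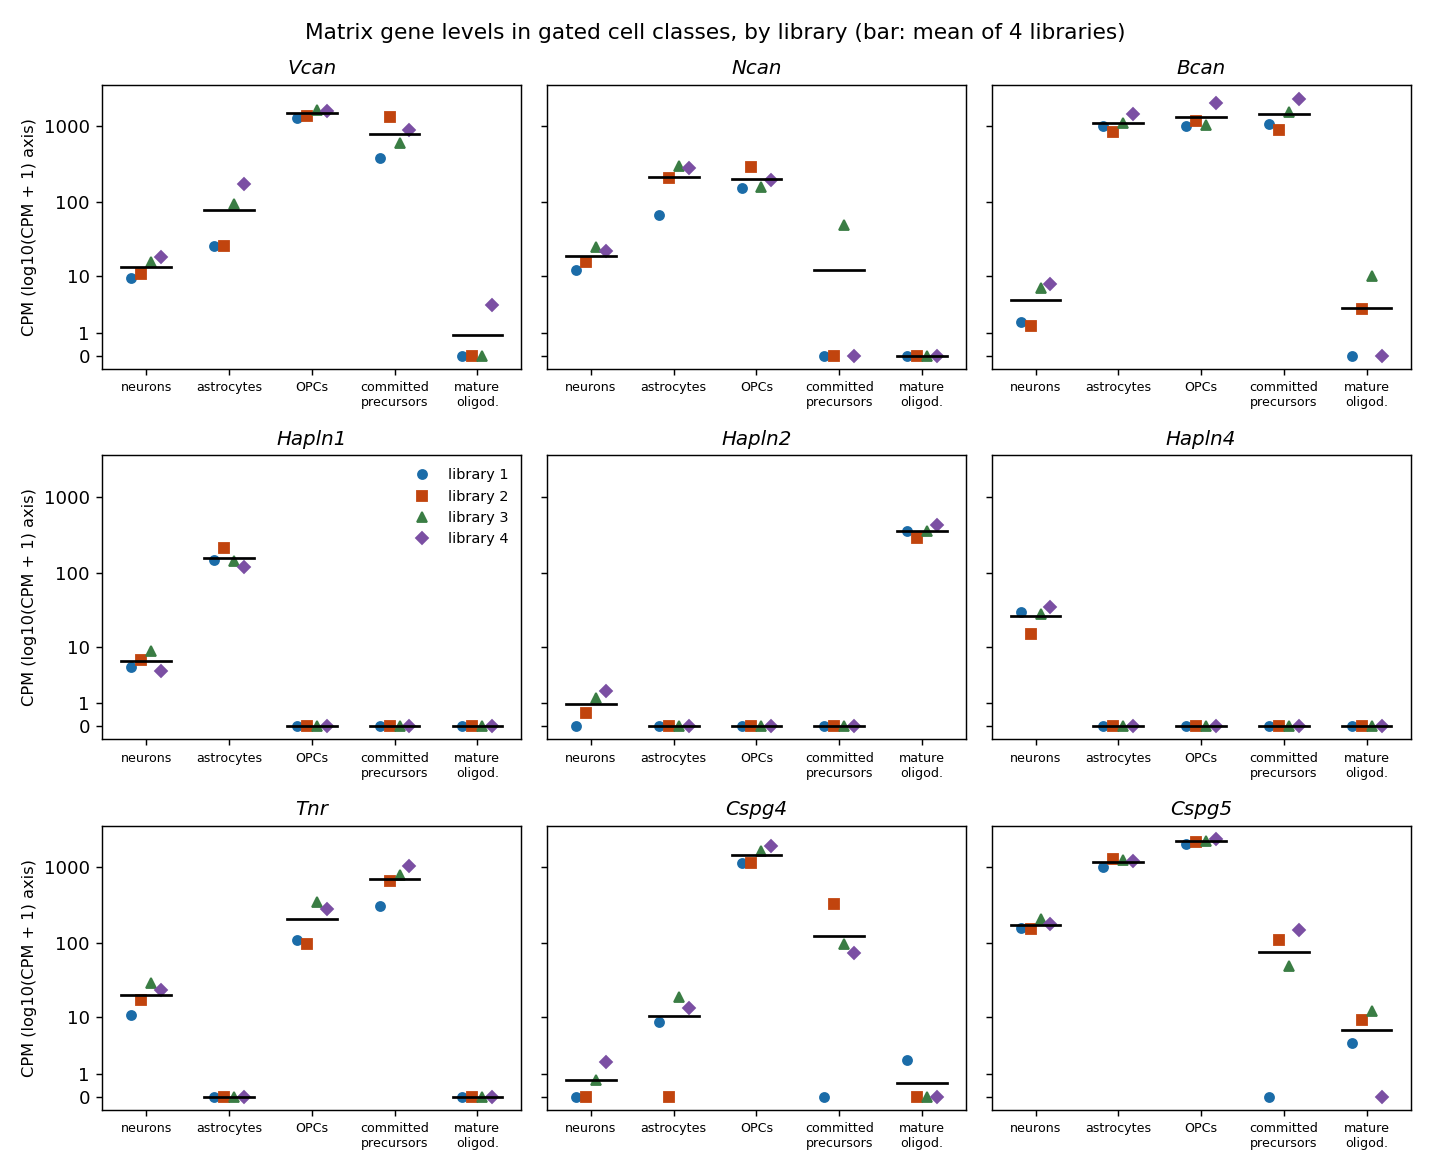
Level of each member in CPM (log10(CPM + 1) axis) in neurons, astrocytes, OPCs, committed precursors and mature oligodendrocytes. Each symbol is 1 library and the black bar is the mean of the 4 libraries. Hapln1 was at 0 in all 3 classes of the oligodendrocyte lineage, and Hapln2 stood at 290 to 427 CPM in mature oligodendrocytes and at 0 in astrocytes, OPCs and committed precursors.

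Versican transcripts were concentrated in OPCs. Vcan stood at 1272, 1365, 1640 and 1583 CPM in the OPCs of libraries 1 to 4 (1465 ± 175 CPM, SD, n = 4), and at 25.8, 26.4, 94.6 and 175 CPM in astrocytes (80.5 ± 70.9 CPM). All OPC values lay above all astrocyte values, and the astrocyte values of libraries 3 and 4 stood well above those of libraries 1 and 2. Vcan was 19.4-fold higher in OPCs than in astrocytes by pooled level, that is, by the UMIs of all 4 libraries together (95% exact interval 13.0 to 30.0, counting error only; edgeR log2 difference 3.81, SE 0.27, adjusted p = 1.65e-42). The astrocyte level rested on 28 UMIs and rose to 190 CPM with a minimum of 800 detected genes per cell. Whether the OPC marker level in astrocytes given above had a part in it was not tested. Neurons held 9.39 to 18.5 CPM (13.7 ± 4.27 CPM), below the astrocytes of the same library in 4 of 4 libraries (edgeR log2 difference of astrocytes against neurons 2.70, SE 0.41, adjusted p = 1.83e-10). Mature oligodendrocytes had 1 Vcan UMI in 905 cells.

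Brevican and neurocan were shared by astrocytes and OPCs. Bcan stood at 990.5, 846, 1117 and 1442 CPM in astrocytes (1099 ± 254 CPM) and at 1009, 1170.3, 1048 and 2035 CPM in OPCs (1316 ± 485 CPM), and the classes overlapped. The pooled level was 1.20-fold higher in OPCs (95% interval 1.00 to 1.43), whereas the edgeR log2 difference had the other sign (-0.24, SE 0.16, adjusted p = 0.324), and no call was made. Here and in the other contrasts, edgeR differences follow TMM scaling of the class sums, whereas pooled folds are of unscaled CPM. They are thus on different scales and can differ in size and sign. Neurons had 1.73, 1.49, 6.67 and 7.59 CPM (36 UMIs), 292-fold below astrocytes by pooled level (207 to 423), and mature oligodendrocytes had 5 UMIs. Neuronal Bcan was higher in libraries 3 and 4, whose kept cells had lower median depths (1577 and 1483.5 UMIs, against 2504 and 1932 in libraries 1 and 2). In the 4069 barcodes with fewer than 200 detected genes, too few to be called cells, Bcan stood at 88.5 CPM. The part of free RNA in the neuronal UMIs was not tested.

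Ncan, a lectican of the nervous system, was higher in glia than in neurons. It stood at 68.9, 211, 303 and 283 CPM in astrocytes (216.5 ± 106 CPM) and at 154, 293, 161 and 198 CPM in OPCs (201 ± 63.8 CPM). These classes overlapped, and their edgeR log2 difference of -0.58 (SE 0.37, OPCs against astrocytes) had an adjusted p of 0.294. In neurons Ncan stood at 12.4, 15.9, 25.3 and 22.3 CPM, below both glial classes in every library (edgeR log2 differences 3.66, SE 0.29, for astrocytes and 3.07, SE 0.44, for OPCs). With 0 UMIs in mature oligodendrocytes (a limit of 1.98 CPM at 3 counts over the class), Ncan was at least 8.71-fold lower there than in neurons.

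The link proteins fell into 3 separate classes. Hapln1 (cartilage link protein, also a component of perineuronal nets) stood at 146, 211, 142 and 121 CPM in astrocytes (155 ± 39.0 CPM) and at 4.94, 6.44, 8.67 and 4.27 CPM in neurons (55 UMIs in 39 cells). Every astrocyte value exceeded every neuronal value (pooled fold 27.0, 95% interval 18.3 to 39.8; edgeR log2 difference 4.87, SE 0.37, adjusted p = 1.51e-37). OPCs, committed precursors and mature oligodendrocytes had 0 UMIs. Taken against 3 counts over the class, Hapln1 was at least 7.09-fold lower in OPCs than in astrocytes (edgeR adjusted p = 4.23e-08). A difference between OPCs and neurons was not detectable at this depth (adjusted p = 0.316), because 3 counts in OPCs correspond to 21.6 CPM.

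Hapln2 marked mature oligodendrocytes, at 355, 289.8, 352 and 427 CPM (356 ± 56.0 CPM, 535 UMIs). Astrocytes, OPCs and committed precursors had 0 UMIs and neurons had 7. The pooled level was 488-fold higher in mature oligodendrocytes than in neurons (235 to 1221), at least 43.8-fold higher than in astrocytes and at least 16.3-fold higher than in OPCs. All 3 contrasts were called by edgeR.

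Hapln4 (Bral2), known from perineuronal nets, was the neuronal link protein here. It stood at 30.2, 14.9, 28.0 and 35.1 CPM in neurons (27.0 ± 8.64 CPM, 268 UMIs in 214 cells), and 268 of its 270 UMIs in kept cells were in neurons. Astrocytes, OPCs, committed precursors and mature oligodendrocytes had 0 UMIs. Without the filter on low counts, Hapln4 was lower in mature oligodendrocytes than in neurons by at least 14.0-fold (edgeR adjusted p = 1.03e-12, DESeq2 adjusted p = 0.00991). In astrocytes it was lower by at least 3.43-fold (edgeR adjusted p = 5.08e-05), a call that DESeq2 did not make (0.128). In OPCs it was lower by at least 1.28-fold (0.00493), a call lost with DESeq2 (0.353) and without library 1 (0.0620). These unfiltered fits called 40.3%, 31.3% and 20.0% of 19317 genes.

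Tnr was found in OPCs, committed precursors and neurons and was at 0 in astrocytes and mature oligodendrocytes. OPCs had 110, 97.5, 349.5 and 283 CPM (30 UMIs) and neurons had 10.9, 17.3, 30.0 and 23.7 CPM (20.5 ± 8.24 CPM). The level in OPCs was 12.0-fold that in neurons by pooled level (7.88 to 17.8; edgeR adjusted p = 1.13e-12). Among 371676 astrocyte UMIs none was Tnr, which limits the level to 8.07 CPM at 3 counts and puts it at least 26.8-fold below OPCs (adjusted p = 2.99e-11) and at least 2.23-fold below neurons (adjusted p = 0.00259). Of Tnr and Bcan, whose proteins bind each other, both were thus detected in OPCs, committed precursors and neurons (174 Tnr and 36 Bcan UMIs). Bcan alone was detected in astrocytes and, with 5 UMIs, in mature oligodendrocytes.

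Cspg4 was mainly an OPC transcript. It stood at 1141, 1122, 1613 and 1894 CPM in OPCs (1442 ± 377 CPM, 202 UMIs), with 4 UMIs in astrocytes, 5 in neurons and 1 in mature oligodendrocytes. The pooled level was 135-fold higher in OPCs than in astrocytes (52.1 to 502; edgeR log2 difference 6.57, SE 0.42, adjusted p = 1.38e-53) and 2817-fold higher than in neurons (1188 to 8771). Astrocytes were also called higher than neurons, on 4 against 5 UMIs (edgeR log2 difference 4.14, SE 1.16, adjusted p = 7.91e-04), and higher than mature oligodendrocytes on 4 against 1 UMI (adjusted p = 0.0288, between 0.0614 and 0.243 under 7 of the alternatives). Vascular cells held 12 Cspg4 UMIs at 72.3, 80.8, 514.5 and 208 CPM. Of these, 9 were in the 12 vascular cells with more UMIs of the mural-cell markers Rgs5 and Vtn than of the other vascular markers, and 3 in the other 54. The 12 cells held 12220 UMIs in all and the other 54 held 73346, so the Cspg4 level was higher in the 12.

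Cspg5 was found in OPCs, astrocytes and neurons. OPCs held 1996, 2146, 2204 and 2346 CPM (2173 ± 145 CPM), astrocytes 990.5, 1269, 1249 and 1199 CPM (1177 ± 128 CPM), and neurons 158, 156, 209 and 181 CPM (176 ± 25.0 CPM). The 3 classes did not overlap. The barcodes with fewer than 200 detected genes held 254 CPM of Cspg5, above the neuronal level. They also held more Ncan (42.6 CPM), Vcan (34.1 CPM), Cspg4 (27.2 CPM), Hapln1 (17.0 CPM) and Hapln2 (17.0 CPM) than the mean of neurons. Hapln4 (18.7 CPM) and Tnr (11.9 CPM) were lower in these barcodes than the mean of neurons (27.0 and 20.5 CPM). The part of free RNA in the neuronal levels of all these genes was not tested. Astrocytes were 6.82-fold above neurons by pooled level (6.12 to 7.58; edgeR log2 difference 2.95, SE 0.13, adjusted p = 2.09e-116). OPCs were 1.86-fold above astrocytes (1.60 to 2.16), and higher in 4 of 4 libraries. The edgeR log2 difference, which follows TMM scaling as the pooled fold does not, was smaller (0.43, SE 0.14, adjusted p = 0.0167). The call was lost with no library block (0.162), with DESeq2 (0.0596), without the low-count filter (0.290), without library 1 (0.139) and without library 4 (0.176). Mature oligodendrocytes had 10 UMIs and lay 25.8-fold below neurons (14.0 to 53.9).

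Counts of called members are read against the share of all genes called. Of the 8 members tested, 7 were called between astrocytes and neurons (6 higher and 1 lower in astrocytes), where 64.0% of 6216 genes were called. Between OPCs and neurons 6 were called, all higher in OPCs (43.9% of genes), and between mature oligodendrocytes and neurons 6 were called, 5 of them lower in mature oligodendrocytes (73.6%). The first and the last of these contrasts therefore had a high background. Between OPCs and astrocytes 5 of 8 were called (4 higher and 1 lower in OPCs), against 23.5% of genes. Between OPCs and mature oligodendrocytes 7 were called (6 higher in OPCs, 39.4% of genes), and between astrocytes and mature oligodendrocytes also 7 (6 higher in astrocytes, 48.5%). The contrasts share class sums and are not independent of each other.

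Committed precursors are cells between OPCs and mature oligodendrocytes. They were gated by at least 2 of Gpr17, Bmp4 and Enpp6, in cells that met the gate of no class outside the oligodendrocyte lineage. No margin over OPC or mature oligodendrocyte markers was needed, and such cells were taken out of those 2 classes. Committed precursors numbered 14, 6, 7 and 6 in the 4 libraries. Their levels of the members differed from those of OPCs in both directions. Cspg4, Cspg5, Vcan and Ncan were lower, Tnr was higher, and Bcan did not differ past the test. All 6 were near or at 0 in mature oligodendrocytes, the class of this lineage in which Hapln2 was detected. The test of committed precursors was chosen after their values had been seen, and 3 of its 4 precursor sums held fewer than 10 cells.

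Cspg5 stood at 0, 111, 49.5 and 149 CPM in committed precursors (4 UMIs), 45.6-fold below OPCs by pooled level (17.6 to 168; edgeR log2 difference -5.52, SE 0.41, adjusted p = 6.09e-28). Cspg4 stood at 0, 334, 99.0 and 74.5 CPM (6 UMIs), 20.5-fold below OPCs (9.24 to 56.4; log2 difference -4.30, SE 0.45, edgeR adjusted p = 3.37e-16). Neither gene overlapped between these classes. Vcan stood at 384, 1335, 594 and 894 CPM (802 ± 412 CPM), lower than in OPCs in 4 of 4 libraries though the ranges overlapped (edgeR log2 difference -1.21, SE 0.27, adjusted p = 1.57e-04). Ncan had 1 UMI, 15.8-fold below OPCs by pooled level (2.60 to 648; edgeR adjusted p = 0.00228).

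Tnr went the other way and stood at 312, 667.5, 792 and 1043 CPM in committed precursors (703.7 ± 304 CPM, 49 UMIs). That was higher than in the OPCs of the same library in 4 of 4 libraries (pooled fold 2.69, 1.67 to 4.39; edgeR log2 difference 1.51, SE 0.39, adjusted p = 0.00152). Bcan stood at 1057, 890.0, 1535 and 2235 CPM (1429 ± 603 CPM). Its pooled fold to OPCs was 1.03 (0.805 to 1.31), and no call was made (edgeR log2 difference 0.06, SE 0.21, adjusted p = 0.912). In this fit 5 of 8 members were called against OPCs, 1 higher and 4 lower, where 17.0% of 3632 genes were called. Against mature oligodendrocytes 5 of 8 were called (4 higher in committed precursors and Hapln2 lower), where 29.1% were called.

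The committed-precursor gate held markers of both neighbours. OPC markers summed to 521 to 2447 CPM there, with 2 of 7 at 0, and mature oligodendrocyte markers to 2377 to 13808 CPM, against 25001 to 31387 CPM in mature oligodendrocytes. Hapln2 was nevertheless at 0 in committed precursors (limit 35.6 CPM), at least 9.93-fold below mature oligodendrocytes, a call that edgeR made and DESeq2 did not (adjusted p = 0.0666). The part of mixed cells in the other values was not tested.

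**Figure D2:**
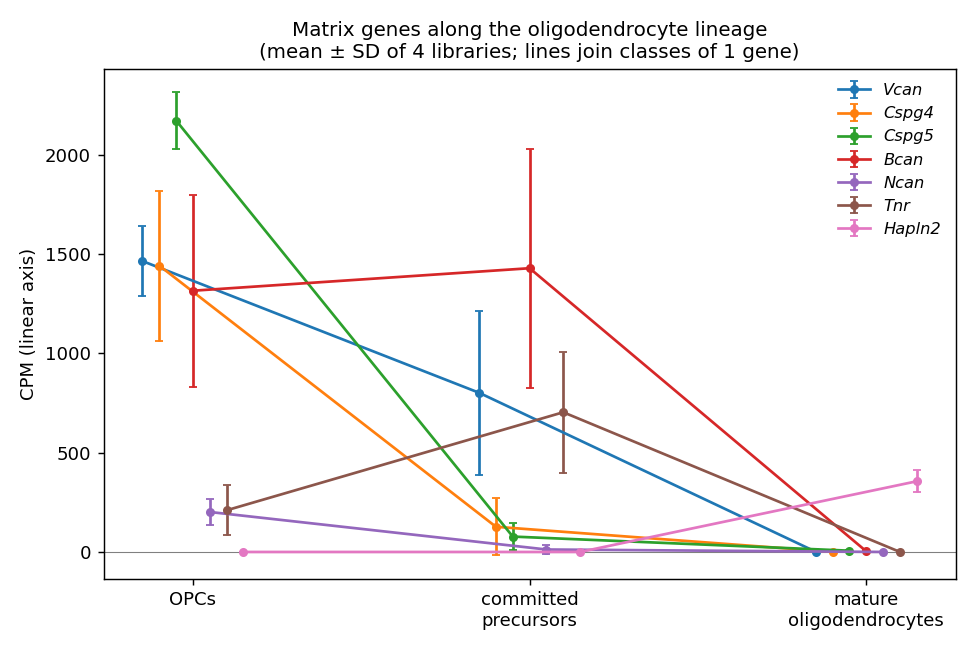
Mean level ± SD of 4 libraries in CPM (linear axis) of 7 members in OPCs, committed precursors and mature oligodendrocytes, with lines joining the classes of 1 gene. Cspg5 and Cspg4 were down to 77.4 and 127 CPM in committed precursors, Bcan stood at 1429 CPM and Tnr at 703.7 CPM, and Hapln2 was seen in mature oligodendrocytes alone of these 3 classes.

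Mature oligodendrocytes were further gated into cells with Opalin and Il33 and cells with Klk6 and Anln, pairs that follow earlier results on these libraries. Hapln2 stood at 147, 145, 207 and 182 CPM in the 425 Opalin and Il33 cells (170.5 ± 29.9 CPM, 125 UMIs in 96 cells). In the 158 Klk6 and Anln cells it stood at 746, 481, 610 and 821 CPM (664 ± 150 CPM, 182 UMIs in 102 cells). All Klk6 and Anln values lay above all Opalin and Il33 values. The pooled fold was 4.04 (3.20 to 5.12), with an edgeR log2 difference of 1.97 (SE 0.19, adjusted p = 4.69e-14), where 14.3% of 1966 genes were called. Hapln2 was the member of the list that passed the low-count filter in this fit. Cspg5 had 1 UMI in the Klk6 and Anln cells and 5 in the Opalin and Il33 cells, where Vcan, Bcan and Cspg4 had 1 UMI each.

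**Figure D3:**
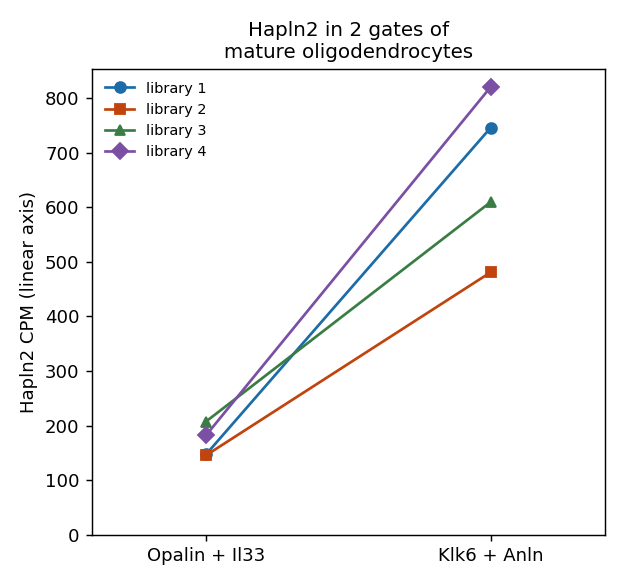
Hapln2 level in CPM (linear axis from 0) in the 2 gates of mature oligodendrocytes, with 1 symbol and 1 line per library. In each of the 4 libraries the Klk6 and Anln cells (481 to 821 CPM) stood above the Opalin and Il33 cells (145 to 207 CPM).

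Neurons of the BNST are mostly GABAergic, and 2159 of the 2511 neurons passed the GABAergic gate and 83 the glutamatergic gate. Glutamatergic neurons were tested as 1 subtype beside 9 of 13 GABAergic subtypes. The GABAergic subtypes were gated by marker pairs, or by 1 gene in the case of Slc17a8, Prkcd and Pvalb. Cells that met the gates of more than 1 of them, or of none, were left out. The GABAergic gates held 4 (Pvalb) to 182 (Sst and Npy) cells, and most GABAergic neurons were in no subtype. The gates of Lhx8 and Rorb, of Prkcd, of Pvalb, and of Avp and Gal held too few cells to be tested. Of the 9 members, Cspg5 alone passed the low-count filter. Its mean levels ran from 116 CPM (Zic1 and Zic4) to 249 CPM (glutamatergic) over the tested subtypes and libraries. Of the untested gates, Lhx8 and Rorb cells stood at 338 ± 243 CPM (31 cells) and Avp and Gal cells at 298 ± 147 CPM (21 cells). Prkcd cells stood at 154 ± 166 CPM (24 cells) and Pvalb cells at 60.9 ± 86.1 CPM (4 cells). The test across subtypes gave an adjusted p of 0.105 in edgeR, where 28.9% of 3126 genes were called. Glutamatergic neurons were called higher than the mean of the other subtypes (log2 difference 0.67, SE 0.20, adjusted p = 0.0372, 3.55% of genes called). That call was lost with no library block (0.293), with DESeq2 (0.0952), without the low-count filter (0.0767), with at least 800 genes per cell (0.0613), with at most 5% mitochondrial UMIs (0.284) and when library 1, 2 or 4 was left out (0.0766 to 0.454).

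The other 8 members were tested across subtypes without the low-count filter, where Vcan and Hapln4 were called and 8.40% of 16777 genes were. Among the tested subtypes, Vcan was highest in GABAergic neurons with Slc17a8, the gene of vesicular glutamate transporter VGLUT3. These 65 cells held 19.8, 93.1, 87.3 and 83.1 CPM in libraries 1 to 4 (70.8 ± 34.3 CPM, 20 UMIs in 12 cells). Against the mean of the other subtypes the edgeR log2 difference was 2.87 (SE 0.51, adjusted p = 8.20e-06, 1.07% of genes called). The call held under every alternative run, with adjusted p between 3.42e-09 and 0.00914. Next in order came cells with Tshz1 and Foxp2, at 37.0 ± 38.6 CPM (adjusted p = 0.194), and glutamatergic neurons had 2 Vcan UMIs. Of the untested gates, Pvalb cells had 1 Vcan UMI in 4 cells, and the others had 0. In these Slc17a8 cells the OPC markers summed to 133 to 204 CPM, with 6 of 7 at 0, against 116 to 179 CPM in all neurons, and Cspg4 was at 0.

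Among the tested subtypes, Hapln4 was highest in glutamatergic neurons and undetected in the subtype with Ppp1r1b and Crym. Of the untested gates, Lhx8 and Rorb cells stood at 60.4 ± 45.8 CPM (8 UMIs in 7 of 31 cells). Avp and Gal cells stood at 57.1 ± 71.5 CPM (4 UMIs in 4 of 21 cells), and Prkcd (24 cells) and Pvalb cells (4 cells) had 0 UMIs. Glutamatergic neurons held 71.9, 52.5, 72.1 and 91.6 CPM (72.0 ± 16.0 CPM, 35 UMIs in 26 cells), and all GABAergic neurons together held 27.0, 13.2, 27.0 and 33.8 CPM (25.2 ± 8.65 CPM). Their values did not overlap, and the pooled fold was 2.77 (1.88 to 3.97). No test of this pair was made, since library 3 had 7 glutamatergic cells. Against the mean of the other subtypes, in the 3 libraries with at least 10 such cells, the edgeR log2 difference was 2.07 (SE 0.42, adjusted p = 1.29e-04, 1.30% of genes called). The 111 Ppp1r1b and Crym cells had 0 Hapln4 UMIs among 363412, a limit of 8.26 CPM at 3 counts, and were called lower (edgeR adjusted p = 0.00108, 5.95% of genes called). All 3 Hapln4 calls were lost without library 1, which held 47 of the 83 glutamatergic cells (adjusted p = 0.0997 across subtypes, 0.242 for glutamatergic neurons and 0.0724 for Ppp1r1b and Crym).

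**Figure D4:**
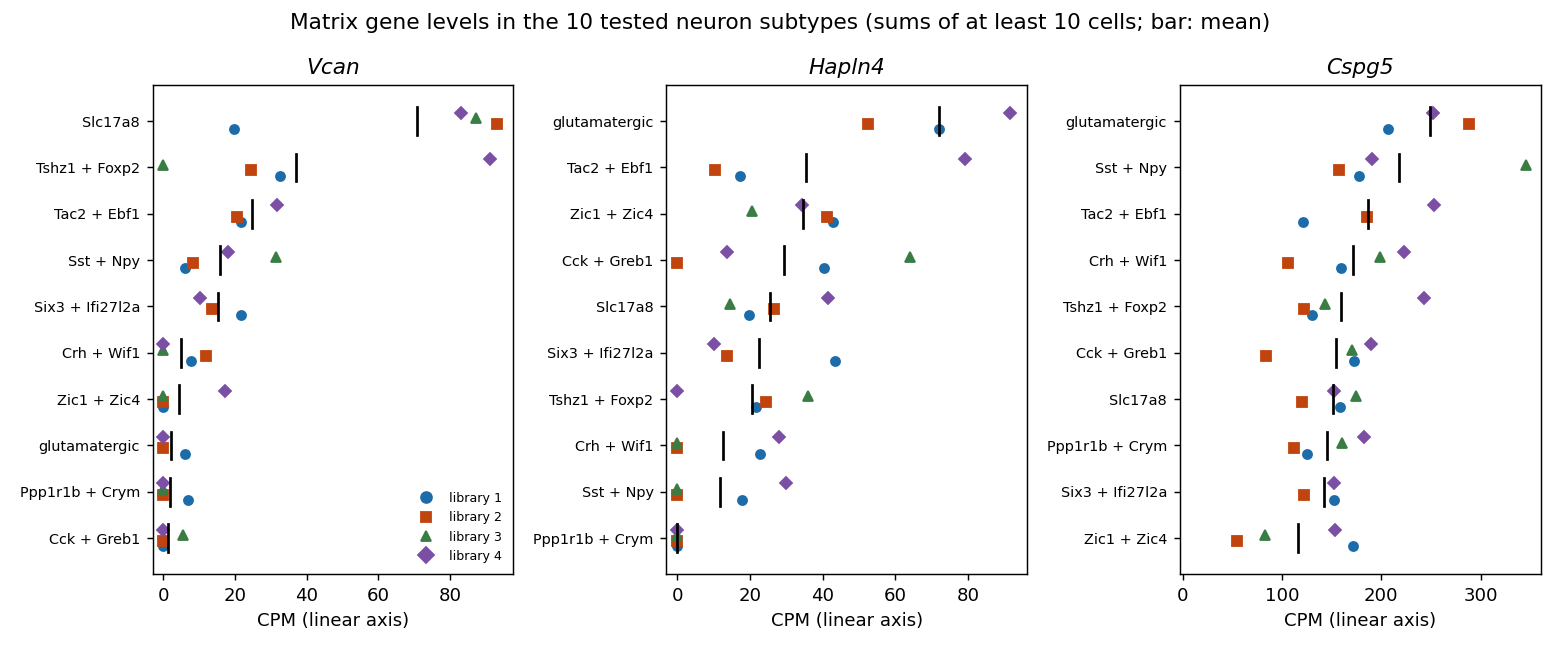
Levels of Vcan, Hapln4 and Cspg5 in CPM (linear axes) in the 10 tested neuron subtypes, each ordered by its mean. Symbols are libraries with at least 10 cells of the subtype and bars are their means. Vcan is highest in Slc17a8 cells, Hapln4 is highest in glutamatergic neurons and at 0 in Ppp1r1b and Crym cells, and the Cspg5 means span 116 to 249 CPM.

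The neuronal Hapln1 UMIs lay partly in Sst and Npy cells, with 10 of 55 in 6 of the 182 cells. This subtype stood at 17.9 ± 9.26 CPM and was called higher than the others (edgeR log2 difference 2.68, SE 0.78, adjusted p = 0.0442, 1.45% of genes called). The call was lost when any of the 4 libraries was left out (0.0998 to 0.418). Of the untested gates, Pvalb cells had 1 Hapln1 UMI in 4 cells, and the others had 0. Ncan, Tnr, Bcan, Hapln2 and Cspg4 had no subtype past the threshold. Ncan was highest by mean in Ppp1r1b and Crym cells among the tested subtypes (41.1 ± 22.7 CPM, 14 UMIs, edgeR adjusted p = 0.201), and Tnr means ranged from 8.26 ± 9.90 CPM in Slc17a8 cells to 26.6 ± 13.6 CPM in Ppp1r1b and Crym cells. Of the untested gates, Avp and Gal cells stood at 85.8 ± 70.7 CPM of Ncan (5 UMIs in 4 of 21 cells). Lhx8 and Rorb cells and Prkcd cells had 1 Ncan UMI each, and Pvalb cells had 0. Aggrecan and its link protein were scarce. Acan had 14 UMIs in kept cells, 10 of them in neurons, and Hapln3 had 9.

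Because classes differed in depth, the share of cells with a UMI was also computed after thinning cells to 1000 UMIs, which left 2155 neurons, 116 astrocytes, 58 OPCs and 686 mature oligodendrocytes and left out 356, 288, 64 and 219 shallower cells. Vcan was then expected in 66.6 ± 14.0% of OPCs, 8.39 ± 9.90% of astrocytes and 1.36 ± 0.412% of neurons. The astrocyte share of Vcan was 1.91, 0, 9.84 and 21.8% in libraries 1 to 4, and in library 2 it lay below the neuronal share of 1.04%. Cspg4 was expected in 64.8 ± 8.36% of OPCs, and Cspg5 in 83.9% of OPCs, 65.0% of astrocytes and 15.6% of neurons. Bcan was expected in 66.9% of astrocytes and 64.5% of OPCs, Hapln1 in 15.7% of astrocytes, Hapln2 in 28.2% of mature oligodendrocytes and Hapln4 in 2.16% of neurons. Ncan was expected in 20.4% of astrocytes, 9.79 ± 7.55% of OPCs and 2.03% of neurons. Its OPC share was 15.4, 7.69, 16.0 and 0% in libraries 1 to 4, below the neuronal share of 2.60% in library 4. Tnr was expected in 15.7 ± 14.7% of OPCs and 2.24% of neurons. Its OPC share was 8.77, 0, 33.8 and 20.4%, below the neuronal share of 1.64% in library 2. Unthinned, 73.8% of OPCs had a Vcan UMI, 69.7% a Cspg4 UMI and 87.7% a Cspg5 UMI, 56.4% of astrocytes a Bcan UMI, 37.7% of mature oligodendrocytes a Hapln2 UMI and 8.52% of neurons a Hapln4 UMI.

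**Figure D5:**
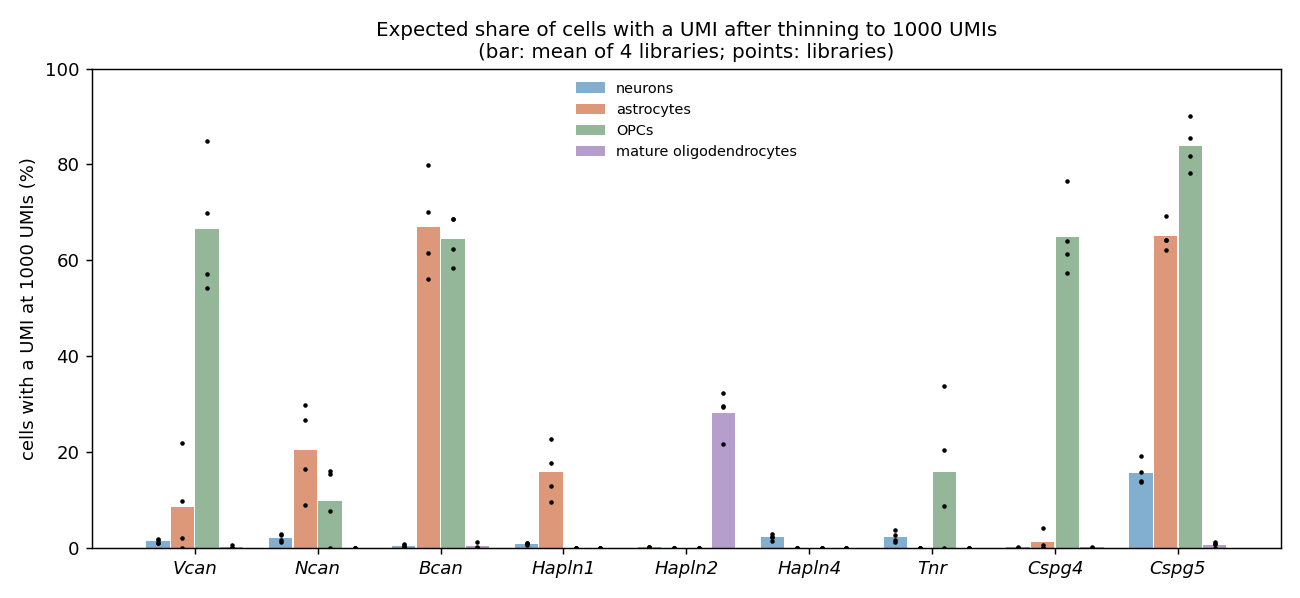
Expected share of cells with at least 1 UMI of each member (%) after thinning to 1000 UMIs, in neurons, astrocytes, OPCs and mature oligodendrocytes. Bars are means of 4 libraries and points are libraries. OPCs lead for Vcan, Cspg4 and Cspg5, astrocytes and OPCs stand at 66.9% and 64.5% for Bcan, and Hapln2 is seen in mature oligodendrocytes (28.2%).

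Single cells carried combinations of the members. Of the 122 OPCs, 121 had a UMI of at least 1 member and 64 (52.5%) of at least 4, and 63 had both Vcan and Cspg4. Of the 404 astrocytes, 334 (82.7%) had at least 1 member, and 148 had both Bcan and Cspg5. In mature oligodendrocytes 352 of 905 cells (38.9%) had at least 1 member and 5 had more than 1. Of the neighbours on the genome, Bcan was found in 413 kept cells and Hapln2 in 350, and 2 had both. Ncan and Hapln4 were found together in 17 neurons, and Vcan and Hapln1 in 4 kept cells (263 with Vcan and 89 with Hapln1). These counts depend on depth.

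Genes that act with the members were described from 6 lists set together with the members. None of the 8 genes for hyaluronan synthesis, binding and breakdown that had a row passed the low-count filter. The proteases and their inhibitors that cut or spare lecticans had 7 of 17 genes tested. Mature oligodendrocytes carried Adamts4, an aggrecanase that cleaves lecticans, at 254 ± 57.3 CPM against 1 UMI in all neurons (edgeR log2 difference 10.20, SE 0.31), 2 UMIs in OPCs and 0 in astrocytes. Adamts1, a related protease, was higher in mature oligodendrocytes than in neurons in 4 of 4 libraries (36.7 ± 10.6 CPM, log2 difference 5.60, SE 0.46). In astrocytes it was also called higher than in neurons (47.6 ± 89.0 CPM, 22 UMIs, 5.90, SE 0.63), but was higher in 2 libraries and lower in 1. In OPCs the call (128 ± 111 CPM, 20 UMIs, 6.80, SE 0.67) was carried by 3 of 4 libraries. Astrocytes carried Mmp14, a membrane-type matrix metalloproteinase, at 161 ± 44.5 CPM (60 UMIs, against 3 in neurons and 0 in mature oligodendrocytes), and the metalloproteinase inhibitor Timp3 was higher in them than in mature oligodendrocytes (log2 difference 8.41, SE 0.27). Timp4, another inhibitor, was highest in astrocytes (252 ± 57.1 CPM), lower in OPCs (70.4 ± 29.4 CPM, log2 difference of OPCs against astrocytes -2.23, SE 0.47, edgeR adjusted p = 2.68e-05), and higher in both than in neurons (8.36, SE 0.41, and 6.14, SE 0.88). Of the 7, 4 were higher and 1 was lower in astrocytes than in neurons, with a median log2 difference of 5.90 against -0.18 over all genes, of which 64.0% were called. In OPCs against neurons these counts were 6 and 1 (median 5.38, 43.9% of all genes called), and in mature oligodendrocytes against neurons they were 2 and 3 (median -1.53, 73.6% of all genes called).

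Of the 5 binding partners of lecticans listed, Matn4 and Ptprz1 were tested. Matn4, a matrilin of the extracellular matrix, stood at 421 ± 54.7 CPM in OPCs, against 2 UMIs in astrocytes and 3 in neurons (edgeR log2 differences 5.80, SE 0.65, and 9.51, SE 0.51). Ptprz1, the receptor-type phosphatase whose extracellular part is the proteoglycan phosphacan, stood at 2219 ± 395 CPM in OPCs, 995 ± 124 CPM in astrocytes and 3.51 ± 3.05 CPM in mature oligodendrocytes (log2 difference of OPCs against mature oligodendrocytes 8.60, SE 0.29). Of 17 genes for chain synthesis and sulfation, 2 were tested. Chst11, a chondroitin 4-sulfotransferase, was higher in OPCs (227 ± 94.5 CPM) than in mature oligodendrocytes (2 UMIs, log2 difference 6.48, SE 0.70). Csgalnact1, an enzyme that starts chondroitin chains, was higher in astrocytes (125 ± 19.2 CPM) than in OPCs (4 UMIs, edgeR adjusted p = 8.61e-04). The receptors Ptprs and Ptprf were the 2 tested of 4, and Ptprs stood at 320 ± 234 CPM in OPCs, 142 ± 58.6 CPM in neurons and 30.0 ± 14.8 CPM in mature oligodendrocytes. Its call in OPCs against neurons (log2 difference 0.88, SE 0.27, edgeR adjusted p = 0.00418) was carried by 3 of 4 libraries, the other being lower, and that against mature oligodendrocytes by 4 of 4 (2.70, SE 0.36).

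The list of other secreted and membrane proteoglycans, which also held the glycoproteins Sparc and Sparcl1, had 8 of 17 genes tested. Of these 8 genes, 4 were higher and 2 lower in astrocytes than in neurons (median log2 difference 2.86), against 64.0% of all genes called. Sdc4, a syndecan, stood at 883 ± 25.0 CPM in astrocytes against 8 UMIs in neurons and 1 in OPCs (edgeR log2 differences 9.99, SE 0.26, for astrocytes against neurons and -7.35, SE 0.54, for OPCs against astrocytes). Sparc stood at 1639 ± 248 CPM in astrocytes and 5.72 ± 2.55 CPM in neurons (log2 difference 8.43, SE 0.17), and was higher in OPCs than in neurons (4.82, SE 0.48). Sparcl1 was lower in OPCs than in astrocytes (log2 difference -4.10, SE 0.17). Sdc3, another syndecan, was higher in OPCs than in mature oligodendrocytes (8.21, SE 0.63) and lower in mature oligodendrocytes than in neurons (-5.68, SE 0.63).

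Profiles over 15 gated classes and subtypes were compared by Pearson's r of mean log2(CPM + 1), as a description of points that share libraries and differ in depth. Among 10016 genes that were neither members nor gate markers, the profile most like that of Hapln2 was Tnni1, tied with Nipal4 (r = 0.994 each), of Bcan Timp4 (0.976), of Cspg5 Fndc4 (0.968), of Cspg4 Cp (0.929) and of Tnr D630045J12Rik (0.929). For Hapln4 it was A330008L17Rik (0.903), for Vcan Ampd3 (0.890), for Ncan Ogt (0.878) and for Hapln1 Sox9 (0.853). Hapln2 was at 0 in most of the classes and subtypes, so its r values rest mainly on mature oligodendrocytes. Between members the highest values were 0.845 for Ncan with Cspg5 and 0.820 for Vcan with Bcan. Neighbouring genes had lower values, 0.142 for Vcan with Hapln1, -0.121 for Bcan with Hapln2 and -0.253 for Ncan with Hapln4.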

How the data were processed

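Male mouse BNST was measured in 4 Drop-seq libraries. The authors deposited raw UMI counts per gene and cell barcode, whole numbers with no normalization. Per the submitters' processing notes, the tools included bcl2fastq 2.18.0.12, STAR 2.4.2a and Picard 2.2.4, with builds mm10 and GRCm38. The annotation, counting strand and rule for barcodes were not given in the sources used here. The members, gates and lists were chosen with earlier results of these data known.

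Library totals ranged from 2640399 to 5652342 UMIs. A barcode was kept where 400 or more genes were detected and no more than 10% of its UMIs were mitochondrial. Of 4239 such cells, Scrublet (scanpy 1.11.5, expected doublet rate 0.05) removed 58 (1.37%). No barcode was shared between the libraries' kept cells. GABAergic subtypes needed at least 2 UMIs over a marker pair, or of the single marker Slc17a8, Prkcd or Pvalb, with no other subtype's gate met. Tested neuron subtypes needed sums of at least 10 cells in at least 3 libraries. UMIs summed per library and class were fitted in R 4.3.3 by edgeR 4.0.16 after TMM scaling and filterByExpr, with library as a block. Library pairs the sums, which are cells of 1 pool of mice. Libraries are separate pools, so p-values rest on how the differences within libraries vary from pool to pool. Shares were computed with Python 3.11.15 and numpy 2.4.6, and exact intervals at 95% with scipy 1.17.1. A permutation test planned for the thinned shares is not given, since its classes were picked from the same shares. Alternatives were no block, DESeq2 1.42.0, no low-count filter, other cell filters, other gates and leaving out each library. On simulated counts with 4-fold changes, the test recovered 53.5% of changed genes for OPCs against astrocytes (4840 genes), 96% for Sst and Npy neurons (2784 genes) and 87% for the oligodendrocyte gates (1794 genes). Of the changed genes, 160, 192 and 174 passed the filter, and the rest count as not recovered. Wrong calls made up 2.73%, 6.80% and 6.45% of the calls. Apart from the changes, the simulated classes shared the same gene proportions, unlike the real classes. Named were all 9 members, Acan and Hapln3, per contrast the up to 3 list genes with the largest called change in 1 direction in all 4 libraries, and the genes most like each member. Csgalnact1, Ptprs and further values of named list genes in other contrasts were added after their values were seen.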

Additional observations from a re-analysis of the deposited data

Results flagged for a closer look

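Bcan in the OPCs of library 4 stood at 2035 CPM, far from the other 3 libraries (1009 to 1170.3 CPM). Its gap to the nearest value, divided by the range of the 4 values, exceeded Dixon's 95% critical value for 4 samples. In all, 21 sets of 4 values were searched, and about 1 in 20 such sets passes by chance. Without any 1 library, Bcan was still not called between OPCs and astrocytes.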

How the results depend on the processing

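Directions changed in 5 member contrasts, none past the threshold in edgeR. Hapln2 against neurons, with 0 UMIs in the first class, was 1.74 (astrocytes) and 2.74 (OPCs) on the log2 scale with DESeq2. Bcan in mature oligodendrocytes against neurons (0.26) was -0.34 at 5% mitochondrial UMIs, -0.28 with classes set by marker UMIs, -0.21 with more markers than of any other class, and -1.27 to 0.93 when libraries were left out in turn. Cspg4 in the same contrast (0.61) was -1.75, -0.43 and -2.30 to 1.97 at 5% mitochondrial UMIs, with more markers and with libraries left out. Bcan in committed precursors against OPCs was -0.087 without the low-count filter and -0.15 to 0.13 with libraries left out. The cause was not tested. Between OPCs and astrocytes 3 of 6 tested members were called with at least 800 genes (18.5% of genes called) or at most 5% mitochondrial UMIs (24.0%), as fewer passed the filter.

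Across neuron subtypes, 0 of 1 tested member was called, against 2 without the low-count filter (8.40% of genes), as all 9 were then tested, and the count was again 2 with no replicate block, DESeq2, 800 genes or the subtype of most UMIs, 3 with at least 3 UMIs, and 1 to 2 with libraries left out. For single subtypes, the 1 call became 0 with no replicate block, DESeq2, 800 genes or 5% mitochondrial UMIs, 2 with the subtype of most UMIs, and 0 to 1 with libraries left out. Without the filter there were 4, also with no replicate block, the subtype of most UMIs or at least 3 UMIs, 3 with DESeq2 or 800 genes, and 1 to 4 with libraries left out. With no replicate block, Cspg5 in OPCs against astrocytes was 0.42 (adjusted p = 0.162) and in glutamatergic neurons 0.59 (0.293), and the pairing by library changed no other call on members in the class contrasts. Glutamatergic and GABAergic neurons had no test, so their block, DESeq2 and filter alternatives were not run. DESeq2 moved the median of all genes by 0.15 (OPCs against mature oligodendrocytes), 0.14 (OPCs against neurons) and 0.12 (astrocytes against mature oligodendrocytes). Depth limits Hapln1 in OPCs, where 3 counts are 21.6 CPM. Vcan and Hapln4 were called in neurons on 20 and 35 UMIs.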
